A study of Rattus norvegicus with 21 samples.

Results

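Macrophages, labelled as derived from blood, were compared with resident microglia sorted from the same injured side of the brain after a stroke. The comparison rests on 6 of the 21 libraries of the study, those titled as macrophages (3 libraries) and as microglia (3 libraries) without the prefix that marks a later set. They were chosen by title, with no measured value used. The 6 libraries came from adult rats, of a strain that the labels spell Winstar, whose middle cerebral artery was blocked for 90 min with a filament and then reopened (MCAO); the treatment field gives 24 h. Cells of the injured side were gated as CD11b+ with low CD45 (microglia) or CD11b+ with high CD45 (macrophages). The protocol states 4 to 6 rats and calls the replicates biological, but not which animals gave which library or whether animals were pooled. P-values therefore measure the spread between these libraries. Brains were flushed with PBS through the heart before cells were isolated. Microglia of sham rats (3 libraries), in which the carotid artery was exposed and its external branch tied, served as a reference level and shared in the estimate of the spread. The treatment field of these sham libraries names a PBS injection at 24 h. The later set, titled 7D, was used for a limited comparison, with 4 libraries each of macrophages and microglia after MCAO and of sham microglia.

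Microglia are the resident macrophages of the brain, which settle there before birth and renew themselves locally. Macrophages derived from blood monocytes enter once the barrier between blood and brain has been damaged, and they carry more of the leukocyte surface protein CD45 than microglia do. Both clear debris and release inflammatory and repair signals, and how far the infiltrating cells differ from the resident ones in the same injured tissue is the question that the comparison addresses.

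One conflict in the labels touches every result. For macrophage replicate 3 and microglia replicate 3, the cell fraction field names the gate of the other cell group, against title and source name. With both left out, edgeR called 4251 transcripts in place of 6383. With both exchanged it called 0, against 123 at an unadjusted p under 0.05, and edgeR was the only tool used for the exchange. The treatment field of the 7D libraries also reads 24 h, and the 7D macrophages carry a microglia gate, so time and gate of that set rest on its titles.

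Total expected counts (RSEM's estimate of the reads of each transcript) were 8171479 to 9668961 in the 6 libraries, and 15836 to 16351 of 30404 listed transcripts had a value above 0. The files pair no transcript with a gene name apart from separate lines for Chi3l1 and Nos2, so neither the sorted cell types nor other cells in the gates could be checked by marker genes. Values under transcript identifiers are per transcript, and a difference can lie in how reads shared by isoforms were divided. The lines Chi3l1 and Nos2 may be of another kind, summed over the transcripts of a gene. The length given for Chi3l1 varied between libraries from 1658 to 1712 nt, while that of Nos2 was 3535 nt throughout, and the sources used here do not say how these lines were made. In bulk libraries, fewer cells of a type and less RNA per cell cannot be told apart. Levels are given as CPM, the expected count scaled to library size with TMM factors.

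Chi3l1 was higher in macrophages than in microglia, 5.48-fold. It encodes a secreted chitinase-like glycoprotein that binds chitin without cutting it and is made by macrophages, and also by neutrophils and reactive astrocytes. The macrophage libraries held 121.1, 94.2 and 172.3 CPM (replicates 1 to 3). The microglia libraries held 50.6, 6.09 and 13.6 CPM. Every macrophage library lay above every microglia library, as for 30.1% of features tested, and microglia replicate 1 was the nearest to them. Sham microglia held 10.2, 18.6 and 17.2 CPM, so microglia replicate 1 lay above the sham range, replicate 3 within it and replicate 2 below it. Microglia did not differ from sham past the threshold (log2 difference 0.61 ± 0.66, edgeR adjusted p = 0.47, where 45.5% of features were called), and the sign turned without microglia replicate 1 (-0.67). The group means were 129.2 ± 39.7 CPM in macrophages and 23.4 ± 23.8 CPM in microglia (SD, n = 3 each). On the log2 scale macrophages exceeded microglia by 2.46 ± 0.62 (SE), with an edgeR adjusted p of 0.01, where 48.8% of features were called. Against sham microglia they were higher by 3.07 ± 0.65 (SE, edgeR adjusted p = 0.0024, where 69.8% of features were called). Whether the difference exceeds 2-fold was not shown (edgeR glmTreat adjusted p = 0.083). Without microglia replicate 1 the log2 fold change was 3.71, and the call ended when both libraries with opposed label fields were left out (1.89, with an adjusted p of 0.11). Over all 21 alternatives adjusted p lay between 0.00033 and 1.

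Chi3l1 is the named gene whose level passed the test, so the sequence around its start is shown for orientation. The files hold no measurement on it. It is the RefSeq promoter on build GRCr8, chr13:48193589-48193888, plus strand, 250 bases before to 50 after the annotated start. Capitals mark GGAAG, letters found in the core of sites for ETS factors, the family of the myeloid regulator PU.1.
Chi3l1 promoter: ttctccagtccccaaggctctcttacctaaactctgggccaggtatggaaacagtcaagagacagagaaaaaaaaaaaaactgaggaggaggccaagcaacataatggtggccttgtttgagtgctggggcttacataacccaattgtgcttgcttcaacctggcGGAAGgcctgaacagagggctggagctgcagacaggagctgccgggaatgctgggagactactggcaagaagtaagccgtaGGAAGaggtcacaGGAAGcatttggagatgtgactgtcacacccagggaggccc
Both strands were searched, and GGAAG occurred 3 times, all on the plus strand. Of 33469 rat promoters of this length, 70.1% held it at least once and 16% at least 3 times. TATAAA, which 14.2% of the promoters held, and GGGCGG, which 33.1% held, were not among the letters of this window. A match describes the letters only.

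Nos2, the inducible nitric oxide synthase that makes nitric oxide from arginine in activated macrophages, did not pass the threshold. The macrophage libraries held 21.5, 6.02 and 34.1 CPM and the microglia libraries 9.65, 0.652 and 2.71 CPM. The groups overlapped, since macrophage replicate 2 lay below microglia replicate 1. The means were 20.5 ± 14.1 CPM and 4.34 ± 4.72 CPM (SD, n = 3 each), and macrophages exceeded microglia by 2.23 ± 0.88 in log2 (SE), with an edgeR adjusted p of 0.063. Sham microglia held 0.552, 3.39 and 1.64 CPM. Against sham, macrophages were higher by 3.44 ± 0.98 in log2 (SE), with an edgeR adjusted p of 0.011 that rose to 0.054 without both libraries with opposed fields, to 0.06 with limma-voom and to 0.18 with those libraries exchanged. The macrophage against microglia difference passed the threshold in 4 of 21 alternatives: with DESeq2 (adjusted p = 0.03), with a replicate block in the 6 MCAO libraries (0.021), and without microglia replicate 1 (log2 fold change 3.61, adjusted p = 0.016) or macrophage replicate 2 (2.64, 0.032). With the block on all 9 libraries of the 24h set, which also ties sham libraries by number, edgeR adjusted p was 0.078. Over the alternatives adjusted p lay between 0.016 and 1. Leaving out macrophage replicate 3 brought the log2 difference to 1.63. Per kilobase of effective length, the scale on which levels of different genes can be compared, macrophages held 83.3 ± 25.5 CPM of Chi3l1 and 6.09 ± 4.17 CPM of Nos2 (SD, n = 3 each).

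**Figure D1:**
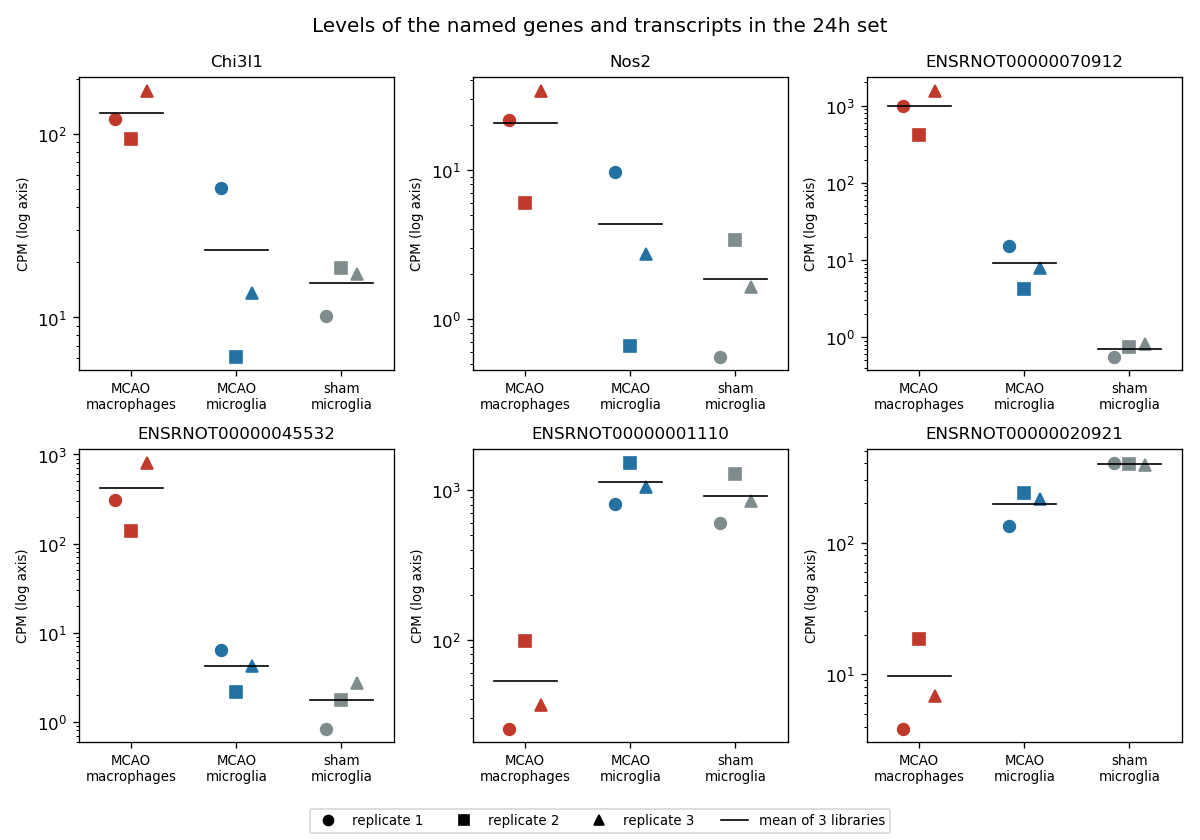
Level in CPM (log axis) of Chi3l1, Nos2 and 4 transcripts in the 3 macrophage, 3 microglia and 3 sham libraries of the 24h set; symbols are replicates and lines are means. Macrophage replicate 2, the square, is the macrophage library nearest to microglia in all 6 panels.

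Across the whole table, macrophages had the higher level in 3240 of 13083 features tested (24.8%) and microglia in 3143 (24.0%), 48.8% in all (edgeR adjusted p under 0.05). That test asks only whether a difference is 0. Tested against a 2-fold difference, 750 (5.73%) were more than 2-fold higher in macrophages and 717 (5.48%) more than 2-fold higher in microglia, 11.2% in all (edgeR glmTreat adjusted p under 0.05). The groups did not overlap for 58.5% of the features, 30.1% with macrophages above and 28.4% with microglia above. These 750 and 717 transcripts are called macrophage-high and microglia-high below. Neither Chi3l1 nor Nos2 is among them. With limma-voom the microglia-high count was 471, and without both libraries with opposed label fields the counts were 500 and 409.

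**Figure D2:**
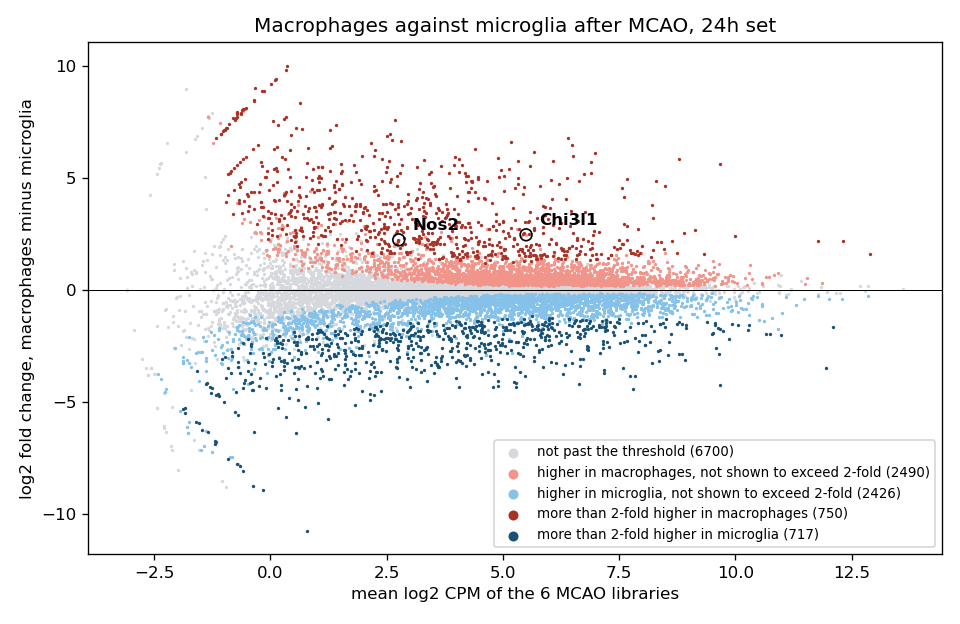
Log2 fold change of macrophages minus microglia against the mean log2 CPM of the 6 MCAO libraries, 1 point per feature, coloured by call. By these fitted values 235 of the 750 macrophage-high points and 71 of the 717 microglia-high points differ at least 16-fold; Chi3l1 and Nos2 are circled.

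Macrophage-high transcripts differed by more than microglia-high ones. Their median absolute log2 fold change was 3.06, against 2.36 for microglia-high transcripts, with transcripts at 0 in every library of the lower group (32 and 17) put at the bound set by 3 counts per library. On the same scale, 211 macrophage-high transcripts (28.1%) differed at least 16-fold, against 57 microglia-high ones (7.95%). Among those with at least 10 expected counts in each of the 6 libraries, the medians were 2.30 (439 transcripts) and 2.05 (482 transcripts), and 69 (15.7%) and 11 (2.28%) differed at least 16-fold. Over all called features the order of the medians was the other way. The median absolute log2 fold change was 0.69 for the 3240 higher in macrophages and 0.90 for the 3143 higher in microglia. The order of the medians thus holds only for the sets cut at 2-fold. At the upper end it did not turn. By fitted values, 242 of all called features (7.47%) were at least 16-fold higher in macrophages and 88 (2.8%) in microglia. All these sets were chosen by this contrast, so the sizes describe them.

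Transcripts seen in 1 cell group were few. At an expected count of 0 in all 3 microglia libraries and of at least 10 in each macrophage library were 35 transcripts, at least 3.68-fold to 45.02-fold higher in macrophages. Of these, 12 were also at 0 in all 3 sham libraries and 9 were above 0 in all 3. For 20 of the 35, at least 1 macrophage library gave a fractional expected count, the mark of reads divided between transcripts. The reverse pattern was found for 12 transcripts, at least 4.63-fold to 76.0-fold higher in microglia. In sham, 9 of them were above 0 in all 3 libraries and 0 were at 0 in all 3. For 11 of the 12, at least 1 microglia library gave a fractional expected count. The highest mean level was 15.2 CPM among the 35 and 25.7 CPM among the 12. The bounds use 3 counts per library and cover counting error only.

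By the naming rule, 2 transcripts stand for each side. The rule kept called transcripts whose mean log2 CPM was 3 or more and whose groups did not overlap, with 10 or more expected counts in each of the 6 libraries, and took the largest changes among the 4743 left. Call, separation and large change between macrophages and microglia were thus required by the rule, and for the transcripts it named they are descriptions. ENSRNOT00000070912 was at 999.3, 417.9 and 1573 CPM in macrophages and at 15.2, 4.24 and 7.89 CPM in microglia. Macrophages were 108.6-fold higher (log2 fold change 6.76 ± 0.61, SE, edgeR adjusted p = 6.2e-05). It was at 0.552, 0.753 and 0.821 CPM in sham, and MCAO microglia exceeded sham by 3.66 ± 0.91 in log2 (SE, edgeR adjusted p = 0.011). With limma-voom adjusted p was 0.21, and over the alternatives it lay between 4.6e-06 and 0.21. ENSRNOT00000045532 was at 306.1, 140.0 and 811.8 CPM in macrophages and at 6.402, 2.17 and 4.19 CPM in microglia. Its level in macrophages was 97.8 times that in microglia (log2 fold change 6.61 ± 0.74, SE, edgeR adjusted p = 0.00017), and 5.68 on the log2 scale without macrophage replicate 3, the highest library. Sham microglia held 0.83 to 2.74 CPM of it, and microglia after MCAO did not pass the threshold against sham (edgeR adjusted p = 0.34).

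ENSRNOT00000001110 stood for the other side, with 810.2, 1532 and 1044 CPM in microglia and 25.3, 98.4 and 36.4 CPM in macrophages. It was 21.2-fold lower in macrophages (log2 fold change -4.41 ± 0.55, SE, edgeR adjusted p = 0.00028). Microglia after MCAO and sham microglia, at 605.7, 1287 and 843.2 CPM, overlapped and did not differ past the threshold (log2 fold change 0.31 ± 0.48, edgeR adjusted p = 0.63). ENSRNOT00000020921 was at 134.0, 236.3 and 214.9 CPM in microglia and at 3.83, 18.4 and 6.82 CPM in macrophages, 20.3-fold lower (log2 fold change -4.34 ± 0.47, SE, edgeR adjusted p = 0.00014). All 3 sham libraries, at 385.2 to 405.6 CPM, lay above all 3 microglia libraries, but the difference missed the threshold (edgeR adjusted p = 0.059). It passed in 6 of 19 alternatives, with values between 0.0056 and 0.4. Among them was the replicate block at 0.03, which ties sham to MCAO libraries by number, a pairing that was not examined. In both transcripts macrophage replicate 2 held the most of the 3 macrophage libraries, and without it the log2 fold changes were -5.21 and -5.21.

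The 750 macrophage-high transcripts made up 11.9%, 9.71% and 12.2% of all counts in the macrophage libraries. In microglia they made up 2.38%, 1.57% and 1.90%, and in sham microglia 1.33% to 1.41%. The 717 microglia-high transcripts made up 11.1%, 14.3% and 13.2% in microglia, 2.37%, 3.84% and 2.45% in macrophages, and 18.5% to 18.8% in sham. Macrophage replicate 2 and microglia replicate 1 were, within their groups, the libraries nearest to the other group on both shares. The contrast between the MCAO groups chose both sets, so their shares in these groups are descriptions. Sham levels did not set the direction, but the sham libraries entered the filter and the estimate of the spread.

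Sham levels mostly continued the order of the 2 MCAO groups. For macrophage-high transcripts the mean sham level lay below both MCAO groups in 483 of 750 (64.4%), between them in 264 and above both in 3. For microglia-high transcripts it lay above both in 540 of 717 (75.3%), between them in 152 and below both in 25. Over all features tested it lay below both in 41.0% and above both in 40.0%. The median log2 CPM of macrophage-high transcripts was 4.72 in macrophages, 1.50 in microglia and 0.96 in sham. That of microglia-high transcripts was 2.43, 4.98 and 5.39. Levels of the same MCAO libraries enter the choice and the order, so the counts are descriptions.

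**Figure D3:**
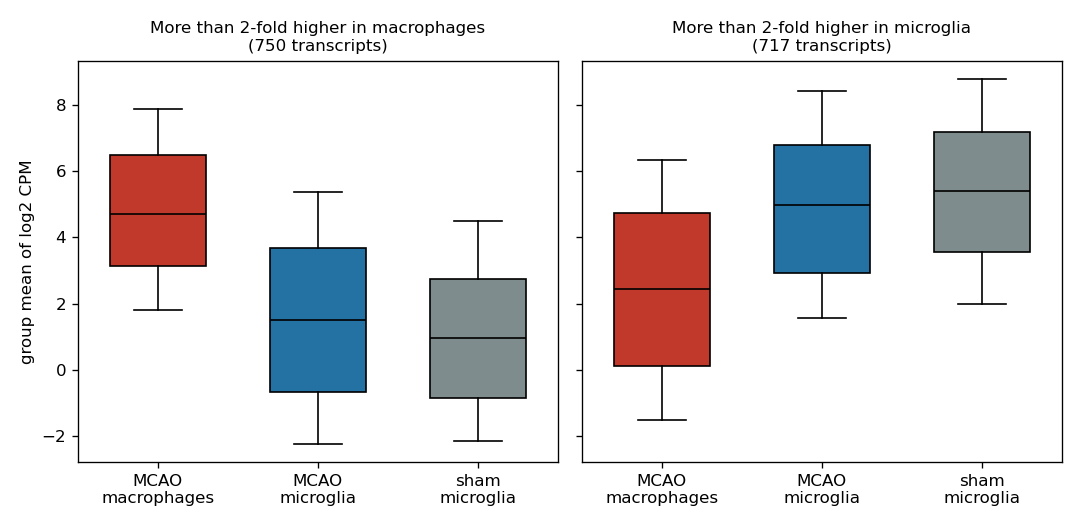
Group means of log2 CPM of the 750 macrophage-high and 717 microglia-high transcripts in macrophages, microglia and sham microglia of the 24h set; boxes span the quartiles, lines are medians and whiskers run from the 10th to the 90th percentile. Sham microglia lie beyond MCAO microglia on the side away from macrophages in both panels, with medians of 0.96 and 5.39.

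Libraries of 1 group differed in how far they stood from the other group. Each library was placed between the mean of the microglia (0%) and of the macrophages (100%) in log2 CPM, by the median over transcripts more than 2-fold different, with calls and means made without the library placed. Microglia replicates 1 to 3 stood at 19.7%, -15.0% and 1.2% on macrophage-high transcripts and at 17.3%, -10.3% and -1.9% on microglia-high ones. Macrophage replicates 1 to 3 stood at 103.6%, 87.7% and 105.6%, and at 117.7%, 65.1% and 112.8%. Microglia replicate 1 and macrophage replicate 2 thus lay nearest to the other group within their own on both sets of transcripts. With calls made without both replicates 3, whose label fields are opposed, macrophage replicate 3 stood at 105.3% and 113.6% and microglia replicate 3 at 1.4% and -2.8%, each with the group of its title. Which cells were in these libraries was not tested.

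Sham libraries, which did not set the direction of the sets, and 7D libraries, which had no part in choosing them, were placed on the same scale. Sham microglia of the 24h set stood at -15.2% ± 1.12 on macrophage-high and -20.3% ± 0.815 on microglia-high transcripts (SD, n = 3). Macrophages of the 7D set stood at 46.2% ± 7.06 on macrophage-high transcripts but at 18.2% ± 1.44 on microglia-high ones (SD, n = 4). Microglia of the 7D set stood at -4.17% ± 4.80 and 4.10% ± 1.72 (SD, n = 4), and 7D sham microglia at -2.80% ± 3.40 and -20.7% ± 1.06 (SD, n = 4). In 7D macrophages, then, the levels of microglia-high transcripts lay nearer to those of 24h microglia than the levels of macrophage-high transcripts did. Set and time go together, so differences between sets carry both. The 7D macrophages also carry a microglia gate in their labels, so their cell group rests on titles.

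**Figure D4:**
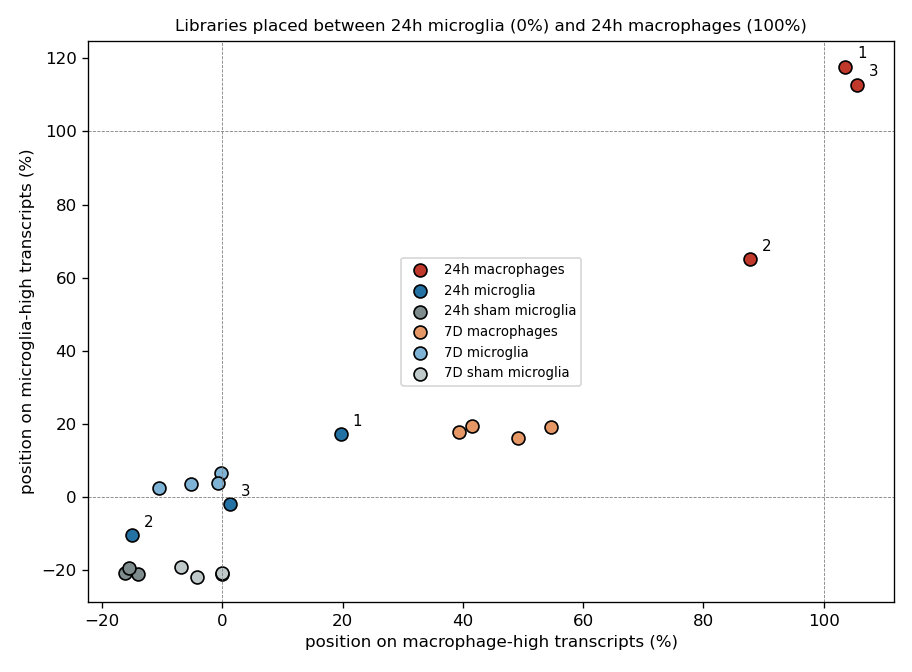
Position of each of 21 libraries between 24h microglia (0%) and 24h macrophages (100%), on macrophage-high transcripts (horizontal axis) and microglia-high transcripts (vertical axis); numbers are replicates of the 24h MCAO libraries, each placed with calls made without it. Macrophage replicate 2 (87.7%, 65.1%) and microglia replicate 1 (19.7%, 17.3%) lie inward of their groups.

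The 7D libraries gave the same contrast in other samples. There 11.0% of 13386 features were called (6.51% higher in macrophages, 4.48% higher in microglia), or 1472 features, against 844 without 7D microglia replicate 4 and 848 without 7D macrophage replicate 2. Of the macrophage-high transcripts of the 24h set, 659 were tested in the 7D set and 419 (63.6%) were called higher in macrophages, with a median log2 fold change of 1.35 against 2.99 in the 24h set. Of the microglia-high transcripts, 713 were tested and 135 (18.9%) were called higher in microglia, with medians of -0.35 and -2.37. A list chosen for large differences in 1 set tends to show smaller ones in the other. The contrast itself differed between the sets in 2843 of 14254 features (19.9%, edgeR interaction test). Of the 750 macrophage-high transcripts the difference was called against the 24h direction for 348 and along it for 11, and of the 717 microglia-high transcripts for 651 and 0. The 24h libraries chose these sets and enter this test, so the counts are descriptions. ENSRNOT00000001110 was among them, at 671.3 ± 184.2 CPM in 7D microglia and 476.9 ± 230.7 CPM in 7D macrophages (SD, n = 4 each); its difference of contrasts, 7D minus 24h, was 3.93 ± 0.66 in log2 (edgeR adjusted p = 0.00038). So was ENSRNOT00000020921, at 156.9 ± 28.6 and 88.5 ± 22.7 CPM (SD, n = 4 each), with a difference of 3.52 ± 0.46 (edgeR adjusted p = 4.8e-05). Transcripts named by the rule were chosen for their large 24h change, which enters this test. A smaller 7D change was thus favoured, and their differences between sets are descriptions.

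For Chi3l1, Nos2, ENSRNOT00000070912 and ENSRNOT00000045532 the difference between sets did not pass the threshold. ENSRNOT00000070912 was at 13.5 ± 15.8 CPM in 7D macrophages and 0.788 ± 0.734 CPM in 7D microglia (SD, n = 4 each; difference of contrasts -2.66 ± 1.33 in log2, edgeR adjusted p = 0.18), and 7D macrophage replicate 4 alone held 37.0 CPM. Without that library the difference was -3.88 (adjusted p = 0.018, between 0.018 and 0.48 over the alternatives). ENSRNOT00000045532 was at 17.2 ± 27.6 and 0.882 ± 0.530 CPM (SD, n = 4 each; difference -2.29 ± 1.71, edgeR adjusted p = 0.4), with 58.6 CPM in the same library, and -4.60 without it (adjusted p = 0.012, between 0.012 and 0.65 over the alternatives). For Chi3l1 the difference was 0.03 ± 0.79 and for Nos2 3.26 ± 2.08 (edgeR adjusted p = 1 and 0.31). Without 7D macrophage replicate 4 they were -0.99 and -0.28. For Nos2 this was the largest shift with 1 library left out, while Chi3l1 reached -1.24 without another library. The sign for Chi3l1 turned in 9 of 17 alternatives. Within the 7D set, macrophages exceeded microglia in Chi3l1 by 2.46 ± 0.58 in log2 (SE, edgeR adjusted p = 0.019), but the call ended in 4 of 11 alternatives (adjusted p between 0.00017 and 0.084).

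Abundant transcripts were partly shared. Of the 100 most abundant transcripts of each group, 62 were in both lists. Of the macrophage list 44 were higher and 22 lower in macrophages, and of the microglia list 58 were higher in microglia and 13 higher in macrophages, where 33.5% of all transcripts at a mean log2 CPM of 9 and over were called higher in macrophages and 36.2% higher in microglia. A list chosen for its level in 1 group favours transcripts higher in that group, so these counts are descriptions. From a mean log2 CPM of 0 upward the share called rose with level, from 37.7% at 0 to 3 to 69.7% of the 254 at 9 and over. Under 0 it was 38.7% of 724. Macrophage-high transcripts made up 8.74% of those tested in the class of 0 to 3 and 2.76% in that of 9 and over. Microglia-high transcripts made up 7.28% and 8.27%, with 4.46% and 4.41% in the classes between. Low transcripts pass the filter on counts through the group in which they are high, so their shares are not support for a difference. The 10 most abundant transcripts held 8.25% ± 0.0636 of counts in macrophages and 7.63% ± 0.414 in microglia (SD, n = 3 each). The 100 most abundant went the other way, with 24.04% ± 0.147 in macrophages and 25.38% ± 0.772 in microglia (SD, n = 3 each). The number of transcripts that held the first 50% of counts was 657.7 ± 13.2 in macrophages and 602.7 ± 31.1 in microglia (SD, n = 3 each). The groups did not overlap in any of these measures. With 3 against 3, however, an exact two-sided permutation test cannot go below 0.1 (exact p = 0.1 for each, adjusted p = 0.2333 over 7 measures).

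The direction of small differences followed transcript length. Of transcripts under 1000 nt, macrophages were higher in 32.7% and microglia in 12.4%, with a median log2 fold change of 0.24 over all 1770 tested. Of transcripts of 4000 nt and over, macrophages were higher in 18.3% and microglia in 35.9%, with a median of -0.18 over 1911. With no filter on low counts the median of the shortest class was 0.058, and with the libraries of opposed label fields exchanged the medians were 0.068 in the shortest and -0.034 in the longest class. Macrophage-high transcripts showed no such trend, at 5.71% of the shortest and 5.65% of the longest class, while microglia-high ones went from 3.33% to 7.27%. Each macrophage library lay above each microglia library in the shortest class and below each in the longest. Sham libraries went further, at -0.54 to -0.51 in the shortest class, relative to the midpoint of the MCAO group means, against -0.17 to -0.03 in microglia. From nominal and effective transcript lengths, fragments averaged 161.4 ± 6.44 nt in macrophages and 161.0 ± 2.10 nt in microglia (SD, n = 3 each; exact permutation p = 1). Sham libraries, at 168.8, 170.8 and 168.5 nt, lay above all microglia libraries (159.2 to 163.3 nt). Macrophage replicate 1 was also at 168.8 nt. Whether fragment length bears on the trend with transcript length was not tested.

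**Figure D5:**
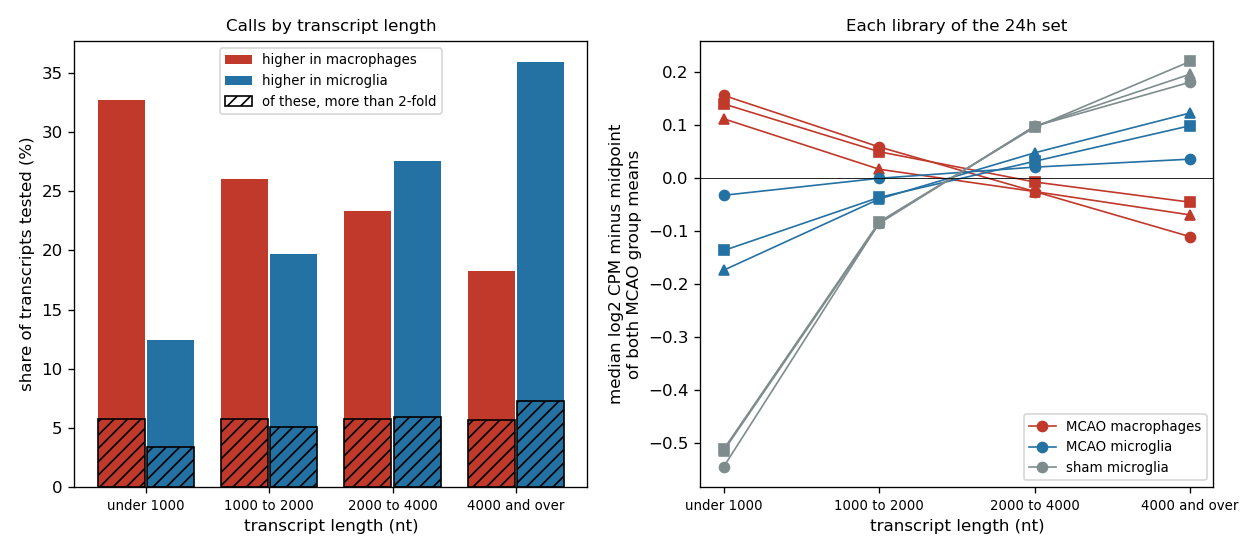
Left, share of transcripts called in each direction by length class, with the part more than 2-fold different hatched; right, median log2 CPM of each 24h library relative to the midpoint of both MCAO group means, by length class. Macrophages have 32.7% called higher in the shortest class and 18.3% in the longest; the 3 macrophage libraries lie above the 3 microglia libraries at the left and below them at the right.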

How the data were processed

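Polyadenylated RNA of sorted cells was sequenced in strand-specific libraries, per the labels' protocols. Per the submitters' processing notes, bcl2fastq, TopHat2 and RSEM were used on build rn5; versions and annotation release are not given in the sources used here. The authors deposited RSEM expected counts, TPM and FPKM per transcript. Only the expected counts were used. In the lines Chi3l1 and Nos2 the values sit 2 columns to the right, so that the deposited FPKM column holds their expected count; no transcript line repeats their counts. Of 30404 transcript identifiers, 0 matched the gene table (47357 genes, GRCr8), so the marker and pathway lists could not be applied.

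Rounded counts went into edgeR 4.0.16 under R 4.3.3 (TMM, filterByExpr with minimum count 10 and minimum total 15, quasi-likelihood F-test, glmTreat against 2-fold) on the 9 libraries of the 24h set, 12 of the 7D set, or all 21 for differences between sets. P-values were adjusted by Benjamini-Hochberg over all features, with a threshold of 0.05. Standard errors are the absolute log2 fold change over the square root of F. The procedure was tested on simulated counts with the same spread for all transcripts and changes planted only in well-counted ones. The spread of these data varies, so that test gives no error rates for them. Alternatives included DESeq2 1.42.0 and limma-voom (limma 3.58.1). The replicate block in the 7D set and in the difference between sets, and library positions from calls against 0 or without both replicates 3, were alternatives chosen after seeing the data.

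Groups and replicate numbers came from titles. Same-numbered macrophage and microglia libraries of the 24h set deviated together (r across transcripts 0.14, 0.14 and 0.18; 0.35, 0.43 and 0.32 at a mean log2 CPM of at least 3), so the numbers were taken to pair them; the 7D numbers did likewise (0.54 to 0.67). The main test did not use this pairing, and the replicate block did. On all 9 libraries of the 24h set the block also ties sham libraries by number, a pairing that was not examined. Replicates of every group differed beyond counting noise (chi-square statistic divided by its degrees of freedom, 5.81 to 65.3). The rule for named transcripts is given in the text; Chi3l1 and Nos2 are reported because the files name them. Members, lists and rules were chosen with earlier results of these data known.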

Additional observations from a re-analysis of the deposited data

Results flagged for a closer look

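In 4 of 18 groups of 4 libraries from the 7D set that were examined, 1 library stood far from the other three, with a gap above Dixon's critical value, which chance exceeds in about 1 in 20 groups. Of these 4, 3 are 1 library, macrophage replicate 4, so the groups are not independent and their number cannot be read against that rate. Macrophage replicate 4 was the highest for Chi3l1 (35.2 CPM, against 4.57 to 8.07 CPM), for Nos2 (23.96 CPM, against 0 to 1.25 CPM) and for ENSRNOT00000045532 (58.6 CPM, against 1.77 to 5.68 CPM). In 7D sham microglia, 1 library held 4.73 CPM of ENSRNOT00000045532.

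The contrast of macrophages with microglia differed between the sets for 2843 features by the edgeR interaction test. Among the named transcripts this held for ENSRNOT00000001110 (7D minus 24h, 3.93 in log2) and ENSRNOT00000020921 (3.52 in log2). Both were named for their large 24h change, which enters the test, so a shift in this direction was favoured. Within the 7D set, ENSRNOT00000001110 was not shown to be lower in macrophages (log2 fold change -0.493 ± 0.365, SE, edgeR adjusted p = 0.44). ENSRNOT00000020921 was lower there by less than in the 24h set (-0.826 ± 0.17, SE, edgeR adjusted p = 0.0094).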

How the results depend on the processing

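Counts and named transcripts of the comparison of macrophages with microglia were recomputed under 21 alternatives. Exchanging the libraries with opposed label fields (groups by the cell fraction field) left 0 features called in either direction, by either threshold. It also gave log2 differences of 0 for Chi3l1, -0.55 for Nos2, -0.16 for ENSRNOT00000070912 and -0.86 for ENSRNOT00000045532 (ENSRNOT00000001110 in microglia against sham -0.20). Leaving both out gave 4251 features called, 1997 of them higher in macrophages, 409 more than 2-fold higher in microglia, and 1.89 for Chi3l1. With limma-voom, 471 were more than 2-fold higher in microglia. Nos2 passed the threshold at 2.25 with DESeq2 and at 2.42 with the replicate block in the 6 MCAO libraries.

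With the replicate block on 9 libraries, 6247 features were called, and beside the blocked values given with the results, the difference between sets for Chi3l1 (-0.47) and ENSRNOT00000045532 within the 7D set (3.28, edgeR adjusted p = 0.11, against 4.29 and 0.037 without the block), no call or sign of a named transcript changed. With limma-voom the difference between sets for Chi3l1 was -0.85. Leaving out 1 library at a time, it ran from -1.24 to 0.48, and for Nos2 from -0.28 to 3.91. Likewise Nos2 in macrophages against microglia ran from 1.63 to 3.61, and microglia against sham between -0.67 and 1.07 for Chi3l1 and, for Nos2, between -0.20 and 1.98. The 7D count, 1472 with every library, was 844 (without microglia replicate 4) to 1382 with 1 left out, and 848 without macrophage replicate 2. The causes were not tested. Depth limits the low transcripts, where a level of 0 allows up to 3 counts per library.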
